A study of Zea mays with 4 samples.

Results

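Maize DNA that is listed as bound by both OBF4 and THX20, and by neither C3H23 nor CPP2, is described here. OBF4 (Zm00001d012553) is by its name an ocs-element binding factor of the bZIP class, and THX20 (Zm00001d017420) is by its name a trihelix protein. The summits of the 4 deposited peak lists were pooled and neighbouring summits at most 200 bp apart were chained into regions. A region was kept when it held at least 1 OBF4 and 1 THX20 peak and no C3H23 or CPP2 peak. This gave 867 regions of 333903 in all, or 0.260%. They hold 912 OBF4 peaks, 1.78% of the 51187 in that list, and 1013 THX20 peaks, 0.957% of the 105867 in that list. The members were chosen by the positions of the summits, so the presence of both peaks and the absence of the other factors in a region are no result.

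The study belongs to work on storage reserve synthesis in the maize endosperm and set out to map the sites of factors downstream of ZmNAC128 and ZmNAC130. The assay was DAP-seq (DNA affinity purification with sequencing), in which a HaloTag fusion protein made in wheat germ extract and held on beads captures fragments of a purified genomic DNA library. All 4 libraries, labelled OBF4, THX20, C3H23 and CPP2, used 500 ng of library DNA of the B73 inbred, taken from leaf at 14 DAG. Each factor had 1 library, so nothing below has a replicate check or a p-value, the read depth is unknown, and all intervals are 95% intervals for counting error of peaks or regions only. Because a protein made in extract met purified DNA, here from leaf, the sites show what it bound outside the cell. They do not show what it occupies in endosperm. The genome build of the positions is not named in the files; positions are given as deposited, counted from 1.

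Plant bZIP proteins bind DNA as dimers through a basic region followed by a leucine zipper. The ocs-element binding factors were named for an enhancer element of the octopine synthase gene of Agrobacterium, and related TGA factors of Arabidopsis bind elements with a TGACG core. Trihelix proteins, also called GT factors, are a family particular to plants and were first described from their binding to GT elements in light-regulated promoters. A summit is the position at which a peak caller places the centre of binding, so the distance between summits of different proteins in a region approximates the spacing of their sites.

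Most of the regions were simple. Of the 867, 699 (80.6%) held 1 peak of each factor, 150 held 3 peaks, and 18 held 4 to 6. More than 1 THX20 peak was found in 133 regions, and more than 1 OBF4 peak in 43. Consecutive OBF4 summits of a region, with or without a THX20 summit between them, were 82 bp apart in 10 of 45 cases, and 85 bp in 4. Consecutive THX20 summits, counted in the same way, had no such concentration, with the most frequent spacing, 187 bp, found in 5 of 146 cases. The shares of these spacings over the whole lists were not computed. The regions were 201 to 803 bp long with a median of 304 bp. The region with the most peaks, 6, lay on chromosome 4 from 81157347 to 81158080, with 4 THX20 and 2 OBF4 peaks, a best OBF4 signal of 46.9 and a best THX20 signal of 47.7.

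The strength of the peaks was read from the authors' signal, a value per peak without a stated scale that ranks peaks within a list only. Ranks are given as a percentage of the list, with 0 for the strongest peak and 100 for the weakest. In both lists the peaks of the regions were spread over the whole range of strength. OBF4 peaks in the regions had signals from 15 to 295.1 with a median of 29.6, against a median of 30.8 over the whole OBF4 list. Their median rank was 53.5% (49.8 to 59.0%), against 50.0% for the list. THX20 peaks in the regions had signals from 13.1 to 482.4 with a median of 31, against 32 over the whole THX20 list. Their median rank was 51.6% (48.6 to 54.8%), against 49.8% for the list. Both intervals hold the value of the whole list.

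The strongest peaks of each list were present among the regions at about the rate of the list. In the strongest 10% of the OBF4 list lay 11.8% (9.90 to 14.1%) of the OBF4 peaks in the regions, against 9.89% of all OBF4 peaks. For THX20 these shares were 11.7% (9.91 to 13.9%) in the regions and 9.99% in the list. When the OBF4 list was cut into 10 classes of rank, the 9th class was the most represented, with 12.8% of the regions' peaks, against 11.3% of the list. Weak peaks near the cutoff of the list were common for OBF4: 54.5% of the OBF4 peaks in the regions had a −log10 q under 5, against 52.8% in the list. For THX20, 33.3% of the peaks in the regions were under 5, against 32.3% in the list. The median rank of 53.5% for OBF4 peaks beside THX20 compares with 64.2% (62.8 to 66.8%) for OBF4 peaks that share a region with C3H23 only. In regions of OBF4 only it was 48.8%. For THX20 the comparison with C3H23 went the other way. THX20 peaks that share a region with C3H23 only had a median rank of 47.4% (46.4 to 48.7%), against 51.6% beside OBF4. None of these differences was tested.

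A strong peak of one factor was only loosely accompanied by a strong peak of the other. Across the 867 regions, which share their libraries and local mappability, the ranks of the best OBF4 and the best THX20 peak had a Spearman correlation of 0.126 and a Pearson correlation of 0.129. The stronger 50% of its list held 47.0% (43.8 to 50.3%) of the OBF4 peaks in the regions, against 50.0% of all OBF4 peaks with ties, and 48.9% (45.8 to 51.9%) of the THX20 peaks in the regions, against 50.3% of all THX20 peaks. Both best peaks were in the stronger 50% of their lists in 211 regions (24.3%) and in the weaker 50% in 245 (28.3%). OBF4 alone was in the stronger 50% in 190 regions and THX20 alone in 221. Both were in the strongest 10% in 20 regions (2.31%) and in the weakest 10% in 15 (1.73%). A peak of one list's strongest 10% met one of the other's weakest 10% in 6 regions with strong OBF4 (0.692%) and in 4 with strong THX20 (0.461%).

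**Figure D1:**
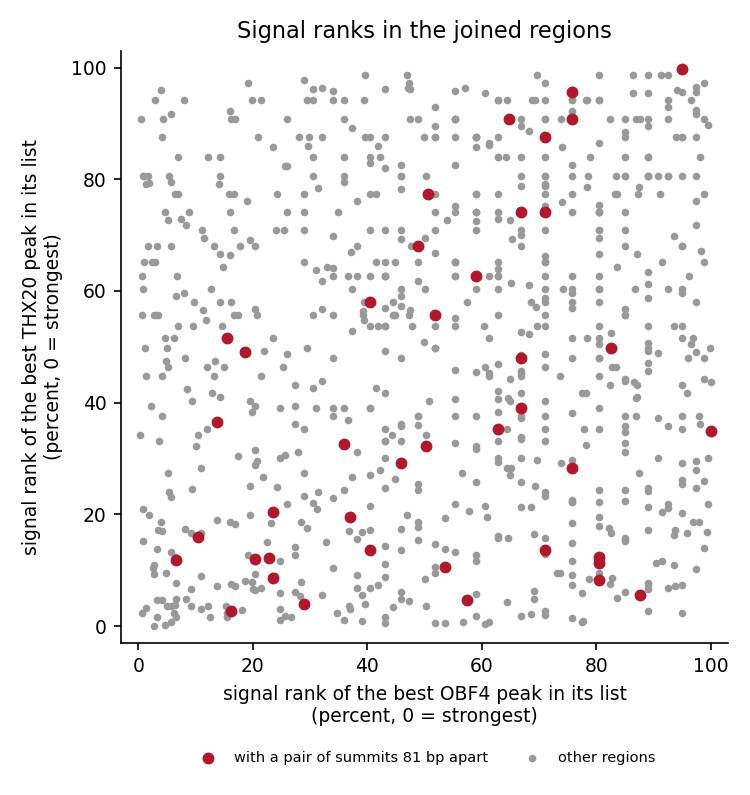
Signal rank of the best OBF4 peak (horizontal axis, percent of the OBF4 list) and of the best THX20 peak (vertical axis, percent of the THX20 list) in each of the 867 regions, with 0 for the strongest peak. The 41 regions with summits 81 bp apart are red, the others grey; the points fill the whole square, with a Spearman correlation of 0.126.

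The 10 regions with the best mean rank had mean ranks from 1.39 to 4.28%. The first lay on chromosome 6 from 168684521 to 168684885 and held 2 OBF4 and 2 THX20 peaks. Its best THX20 peak had a signal of 482.4, the highest THX20 signal among the regions, and its best OBF4 peak a signal of 109.9. In 2nd place stood chromosome 1 from 306603176 to 306603639, with an OBF4 signal of 201.3 and a THX20 signal of 146.8 and with 3 OBF4 peaks beside 1 THX20 peak. On chromosome 7 from 47294673 to 47294963 the OBF4 signal was 149.4 and the THX20 signal 132.4, and the nearest summits were 8 bp apart. That these leading regions were strong for both factors follows from how they were picked. Of the 10, 5 held over 2 peaks, against 19.4% of all regions. A best rank is taken over more peaks in such regions, so the choice itself favours them.

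The next 3 places follow. On chromosome 9 from 106620439 to 106620820, which held 5 peaks, the OBF4 signal was 87.6 and the THX20 signal 330.4. On chromosome 8 from 160224631 to 160224832 they were 102 and 164.8, with summits 1 bp apart. On chromosome 3 from 50189405 to 50189852, again with 5 peaks, they were 80 and 218.2. In these 3 regions THX20 stood higher in its own list than OBF4 did. The other 4 lay on chromosome 1 from 46416635 to 46417019, from 290240756 to 290240958 and from 290235200 to 290235443, and on chromosome 7 from 121363312 to 121363513. Their OBF4 signals ran from 76 to 101.3 and their THX20 signals from 115.7 to 165. None of the 10 had summits 81 bp apart, and 3 of them had summits at most 2 bp apart. The highest OBF4 signal among the regions, 295.1, lay on chromosome 4 from 32791610 to 32791895 beside a THX20 peak with a signal of 43, at 34.2% of its list.

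The offset between the summits was then followed. The regions held 1070 pairs of an OBF4 and a THX20 summit, of which 992 were at most 200 bp apart. The nearest pair of a region had a median offset of 83 bp (81 to 86 bp), with quartiles at 43.5 and 133 bp. OBF4 had the lower coordinate in 445 nearest pairs and THX20 in 421, so over all regions neither order prevailed. In regions of C3H23 and OBF4 only the median nearest offset was 63 bp (60 to 68 bp), and in regions of C3H23 and THX20 only it was 95 bp (93 to 98 bp). Summits at most 10 bp apart were found in 5.65% (4.30 to 7.39%) of the OBF4 and THX20 regions, against 9.43% of the C3H23 and OBF4 regions and 4.90% of the C3H23 and THX20 regions. At the limit of the rule, 25 neighbouring summits 191 to 200 bp apart lay inside the regions, with median signals of 29 for OBF4 and 30 for THX20; 28 that were 201 to 210 bp apart stayed outside, with medians of 31.7 and 33.3.

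Over all regions, the rank of the best THX20 peak was higher in its list where the nearest summits were closer, but the best rank and the nearest offset both depend on how many peaks a region holds. Where the nearest summits were at most 10 bp apart, the best THX20 peak had a median rank of 38.3% (24.3 to 51.6%), and from 101 to 150 bp apart one of 56.5% (51.6 to 62.7%). In regions of 1 OBF4 and 1 THX20 peak, the medians were 48.5% (26.3 to 62.7%) for the 41 regions at most 10 bp apart and 60.3% (53.7 to 65.3%) for the 164 regions from 101 to 150 bp apart, with overlapping intervals. The OBF4 medians in these single-peak regions were 51.9 and 59.0%, again with overlapping intervals. The distance classes and the restriction to single-peak regions were set after the values were known, and no difference between them was tested.

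A few exact offsets recurred. Each offset from 1 to 200 bp was found 4.96 times on average, both orders counted together. An offset was called frequent when it was found at least 10 times, and over 2 times as often as the mean of the 20 offsets around it with a gap of over 4 Poisson standard deviations. By this rule 4 of the 200 offsets (2%) were frequent: 81 bp (41 pairs against a mean of 6.45 around it), 57 bp (22 against 4.65), 29 bp (21 against 4.90) and 84 bp (19 against 7.55). The 81 bp offset was known from these lists beforehand and is given as a description. All 4 lists together held 42 pairs of OBF4 and THX20 summits 81 bp apart, and all but 1 lay in regions without C3H23 and CPP2. The matching share for pairs at other offsets was not computed, so this count cannot be read as particular to 81 bp. A pair 81 bp apart was present in 4.73% (3.50 to 6.35%) of the OBF4 and THX20 regions. A pair of their own summits at that offset was present in 11 of 2185 C3H23 and OBF4 regions (0.503%) and in 21 of 5018 C3H23 and THX20 regions (0.418%), for which the offset had not been picked.

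The frequent offsets differed in the order of the summits, for which no strand is known. At 81 bp the OBF4 summit had the lower coordinate in 29 of 41 pairs, or 70.7% (55.5 to 82.4%). At 57 bp the order was the other way, with OBF4 lower in 5 pairs and THX20 lower in 17. At 84 bp OBF4 was lower in 7 and THX20 in 12, and at 29 bp OBF4 was lower in 10 and THX20 in 11.

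**Figure D2:**
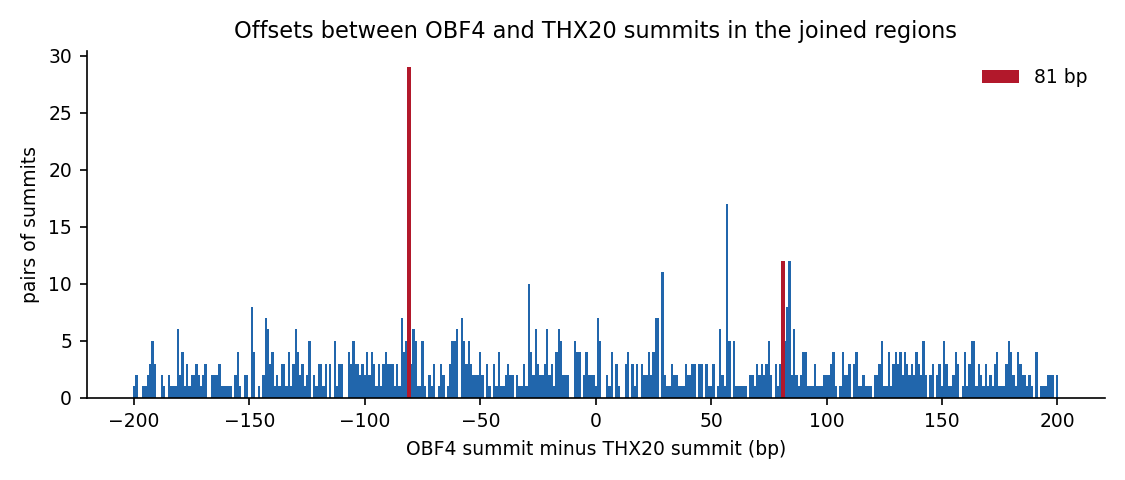
Number of OBF4 and THX20 summit pairs (vertical axis) at each offset in bp (horizontal axis, OBF4 minus THX20; negative values have OBF4 at the lower coordinate) in the 867 regions. The red bars mark 81 bp, with 29 pairs on the negative and 12 on the positive side; the next highest bar is at 57 bp with 17 pairs.

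The 41 regions with summits 81 bp apart were of middling strength for OBF4 and somewhat stronger for THX20. At the paired summits the OBF4 signal ran from 15 to 76 with a median of 29.5, and the THX20 signal from 13.1 to 123 with a median of 41. All THX20 peaks of these regions had a median rank of 35.9% (20.4 to 49.8%), against 53.0% (49.2 to 55.8%) for the THX20 peaks of the other regions. The OBF4 peaks had a median rank of 53.6% (40.5 to 66.8%) in these regions, against 53.5% (48.8 to 59.0%) in the others. Of the 41, 9 lay on chromosome 4, which held 12.9% of all 867 regions. On chromosomes 1 and 3, with 15.6 and 11.1% of all regions, lay 6 each. On chromosomes 6, 9 and 10, with 7.04, 7.50 and 4.96%, lay 1 each. Several of those on chromosome 4 lay close together in pairs, described below, and no difference between chromosomes was tested. They were present on all 10 chromosomes.

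The best ranked of the 41 lay on chromosome 2 from 164215973 to 164216254, with an OBF4 signal of 76 and a THX20 signal of 79. Behind it in rank came chromosome 7 from 58249044 to 58249325 (OBF4 52, best THX20 140.5), chromosome 1 from 150492944 to 150493352 (63 and 68.7), chromosome 5 from 14297250 to 14297531 (44 and 91) and chromosome 4 from 111131298 to 111131579 (47 and 78.6). In 4 of these 5 the THX20 summit had the lower coordinate, unlike the majority of the 41.

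Several of the 81 bp regions came as pairs at a nearly constant distance of about 9.68 kb. Of neighbouring regions of OBF4 and THX20 only, 33 pairs were at most 25 kb apart, and their distances were not spread evenly. In the 1 kb bin from 9 to 10 kb lay 9 pairs, all between 9570 and 9687 bp, and in the bin from 5 to 6 kb lay 6 pairs, all between 5474 and 5583 bp. No other bin held more than 3. Of the 9 pairs, 5 joined regions that both had summits 81 bp apart, and in 9 of 9 the order of OBF4 and THX20 was the same in both regions. The same order was also found in most of the 33 pairs, though in only 2 of the 6 from 5 to 6 kb. Each of those 6 included a region whose nearest summits were at most 2 bp apart. There the order rests on so short a distance that this contrast cannot be judged.

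On chromosome 1 the regions starting at 289999676 and 290009358 were 9682 bp apart, with OBF4 signals of 35.5 and 23 and best THX20 signals of 61.7 and 93. On the same chromosome the regions starting at 294371648 and 294381335 were 9687 bp apart, with OBF4 signals of 15 and 34 and THX20 signals of 42.1 and 74. On chromosome 4 such pairs started at 111131298 and 111140971 (9673 bp) and at 113876007 and 113885693 (9686 bp), and on chromosome 5 at 65872298 and 65881975 (9677 bp). The distances thus agreed to within 14 bp although the places are on 3 chromosomes, while the best signals of paired regions differed by up to 2.27 times for OBF4 and 2.05 times for THX20. A further pair of 81 bp regions on chromosome 4, starting at 140164642 and 140181802, was 17160 bp apart.

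Of the 41 regions with an 81 bp pair, 11 belonged to a neighbouring pair of regions 9 to 10 kb apart. Among the other 30, another OBF4 peak lay from 9.5 to 9.8 kb away in 1 region, or 3.33% (0.591 to 16.7%), against 24 of 819 regions, or 2.93% (1.98 to 4.32%), that had no 81 bp pair and no such neighbour. Another THX20 peak lay there in 8 of the 30, or 26.7% (14.2 to 44.4%), against 41 of the 819, or 5.01% (3.71 to 6.72%). The THX20 distances beside the 30 regions ran from 9506 to 9795 bp and so covered nearly the whole window. In the whole lists, 3.70% of THX20 and 1.69% of OBF4 peaks had another peak of their factor in this window. Extra THX20 peaks around all 41 regions were not limited to it. From 1000 to 1500 bp there were 0.220 THX20 peaks per region, against 0.076 around regions without an 81 bp pair. From 500 to 1000 bp and from 8500 to 9000 bp there were 0.195, against 0.062 and 0.074. At several other distances the 41 regions had fewer. The window from 9.5 to 9.8 kb was chosen after the distances between neighbouring regions had been seen, and none of these differences was tested.

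**Figure D3:**
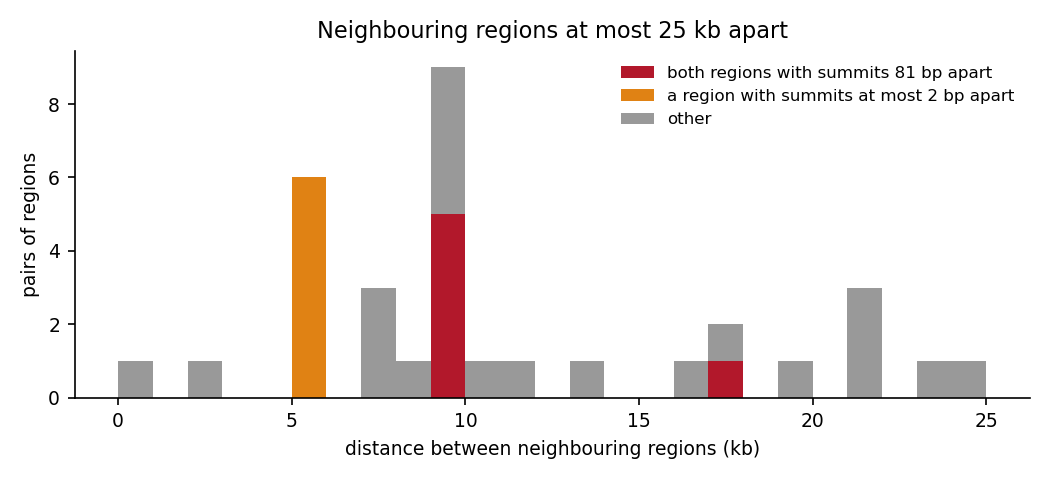
Distances in kb (horizontal axis) between neighbouring regions of OBF4 and THX20 only, for the 33 pairs at most 25 kb apart, in 1 kb bins (vertical axis, pairs of regions). The fullest bins are 9 to 10 kb with 9 pairs, 5 of them between regions with summits 81 bp apart (red), and 5 to 6 kb with 6 pairs, each with a region whose summits were at most 2 bp apart (orange).

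Some of the regions whose summits nearly coincided lay 5 to 6 kb from another region. In 17 regions the nearest OBF4 and THX20 summits were at most 2 bp apart. Their best OBF4 signals ran from 20.7 to 102 with a median of 38, at a median rank of 32.1% (13.8 to 66.8%), and their best THX20 signals from 16.1 to 165 with a median of 50, at 27.5% (7.10 to 56.9%). All 6 neighbouring pairs from 5 to 6 kb included such a region, and in 2 both regions were of this kind. On chromosome 1 the regions starting at 290235200 and 290240756 were 5556 bp apart, with OBF4 signals of 78 and 76 and THX20 signals of 147.4 and 165; both are among the 10 best ranked regions. On chromosome 7 the regions starting at 121363312 and 121368829 were 5517 bp apart, with OBF4 signals of 85 and 38 and THX20 signals of 128.4 and 18. On chromosome 8 those starting at 160224631 and 160230134 were 5503 bp apart, with OBF4 signals of 102 and 51 and THX20 signals of 164.8 and 98.

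Among the 17 regions with summits at most 2 bp apart, the 8 that had another OBF4 and another THX20 peak from 5.4 to 5.7 kb away were the 8 that belong to these neighbouring pairs. None of the other 9 had a peak of either factor at that distance, with an upper limit of 29.9%. Among 846 regions with summits over 2 bp apart and no such neighbour, 13 (1.54%) had an OBF4 peak there and 22 (2.60%) a THX20 peak. With 9 regions a difference from these shares cannot be judged. The window was chosen after the distances between neighbouring regions had been seen. The 29 bp offset formed a local series on chromosome 4, where 3 regions starting at 90727027, 90735248 and 90756598 all had OBF4 29 bp below THX20, with OBF4 signals of 61.4, 85 and 72 and THX20 signals of 23, 32 and 22.2. No annotation of repeats or genes in the coordinates of the lists was used here, so what these recurring places are was not tested.

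The surroundings of the regions were compared with places bound by OBF4 or THX20 alone. A C3H23 summit lay within 1 kb of the centre of 18.7% (16.2 to 21.4%) of the regions, against 8.40% (8.15 to 8.66%) of OBF4-only and 11.1% (10.9 to 11.3%) of THX20-only regions. For CPP2 the share was 7.38% (5.82 to 9.32%), against 6.76% (6.53 to 6.99%) for OBF4-only and 16.8% (16.5 to 17.0%) for THX20-only regions. The share near C3H23 was above that of either kind of single-factor region, beyond counting error, while the share near CPP2 differed from that of OBF4-only regions by less than counting error. Within 5 kb the CPP2 shares were 42.9% in the regions, 45.1% in OBF4-only and 52.6% in THX20-only regions. Within 5 kb the C3H23 shares were 40.9% in the regions, 35.8% in OBF4-only and 36.3% in THX20-only regions. The rule removes any region chained to a C3H23 or CPP2 summit in all 3 kinds. The stretch it clears around a centre depends on the length of the region, which had a median of 304 bp for OBF4 and THX20. Whether the rule affected the shares of the 3 kinds equally was not tested.

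Along the genome, 857 regions lay on the 10 chromosomes, 0.407 per Mb. Chromosome 7 was the densest with 0.521 per Mb (0.421 to 0.637) and chromosome 10 the sparsest with 0.285 per Mb (0.206 to 0.384), a ratio of 1.83. The densest chromosome exceeded the sparsest by only 1.13 times for OBF4 peaks and 1.10 times for THX20 peaks. Chromosome 7 had 1.32 times (1.05 to 1.63) the density of the other 9 in regions, 1.08 times in OBF4 peaks and 1.04 times in THX20 peaks. Chromosome 10 had 0.684 times (0.491 to 0.930) the density of the others in regions, 0.977 times in OBF4 peaks and 0.998 times in THX20 peaks. These 2 chromosomes were picked as the extremes of 10, so their intervals overstate how far they stand apart. On chromosome 10, 1.24% (0.925 to 1.66%) of the OBF4 peaks lay in a region, and on chromosome 7, 2.07% (1.70 to 2.51%).

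The regions were denser in the middle of the chromosomes than at their ends. In the central 20% of chromosome length there were 0.484 regions per Mb (204 regions) and in the outermost 10% at either end 0.385 (162 regions), a ratio of 1.26 (1.02 to 1.56). The ratio was above 1 on 9 of 10 chromosomes. For all OBF4 peaks it was 1.36 (1.32 to 1.40) and for all THX20 peaks 1.29 (1.26 to 1.31), both inside the interval of the regions. For regions of C3H23 and OBF4 only it was 1.35 (1.18 to 1.55), and for regions of C3H23 and THX20 only 1.64 (1.50 to 1.80). In bins of 10% of chromosome length the regions were densest in the 5th bin, with 0.546 per Mb, and sparsest in the 9th, with 0.337. Of 2101 full bins of 1 Mb, 145 held 2 or more regions. The fullest, from 111000001 to 112000000 on chromosome 4, held 5 regions, among them the 9673 bp pair with summits 81 bp apart and a 9621 bp pair starting at 111545019 with offsets of 84 and 124 bp.

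**Figure D4:**
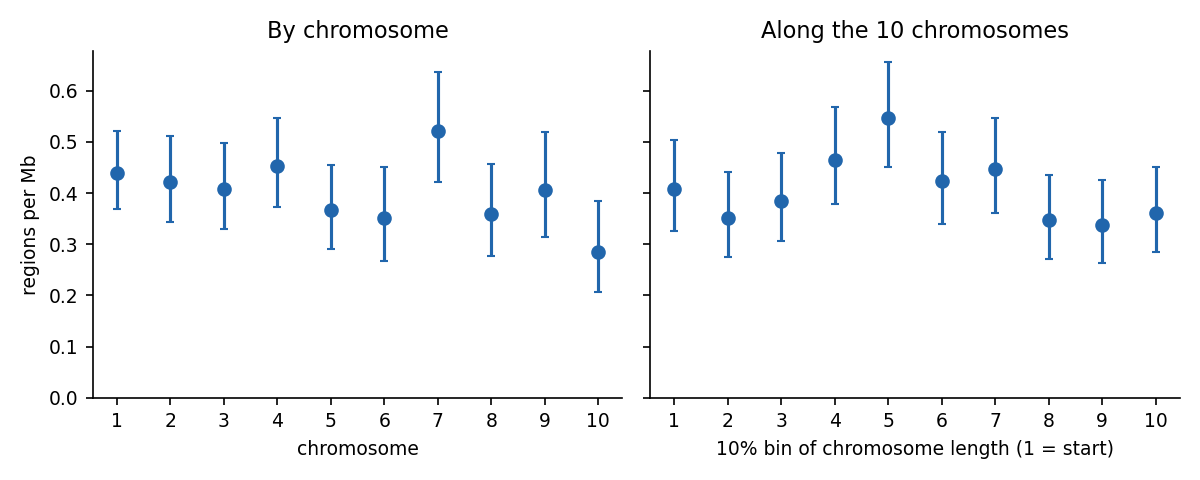
Regions of OBF4 and THX20 only per Mb (vertical axes) on each of the 10 chromosomes (left) and in bins of 10% of chromosome length summed over the 10 (right); bars are exact 95% Poisson intervals. Chromosome 7 is highest at 0.521 and chromosome 10 lowest at 0.285, and the 5th bin is highest at 0.546.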

How the data were processed

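Peak lists of 4 DAP-seq libraries (OBF4, THX20, C3H23 and CPP2, 1 each) were used, with groups taken from the sample titles. The factor names within the names of the deposited lists are not those of the titles, which were followed. Per the submitters' processing notes, Trimmomatic 0.39 and Bowtie2 2.4.1 were used. The peak caller, control library and build were not given in the sources used here. The deposited lists give 201 bp peaks with the summit 100 bp after the start, the authors' score, the authors' signal of unstated scale, and the deposited −log10 p and −log10 q, whose lowest value is 3. File names point to removal of blacklisted regions by the authors, which can take out strong peaks too. Ranks used the signal, with ties averaged.

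Regions, offsets and densities were computed with pandas 2.3.3, scipy 1.17.1 and numpy 2.4.6 under Python 3.11.15, and plotted with matplotlib 3.10.9; the chaining was tested on simulated data. Shares have Wilson, medians binomial order-statistic, and density ratios exact binomial intervals. Chromosome length ran to the last peak of any list. Named regions are the 10 of best mean rank, the 5 best with summits 81 bp apart, the 3 with the most peaks, those with the highest signals and the fullest 1 Mb bin; pairs of neighbouring regions and the 29 bp series were singled out after their values were seen. The members and the 81 bp offset were chosen with earlier results of these data known. Alternatives changed the chaining distance, the peaks used, the ranking column, the offset tolerance and the central share. No genome of the lists' build was used here, so no gene, motif or sequence is given.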

Additional observations from a re-analysis of the deposited data

Results flagged for a closer look

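The comparison along chromosomes did not use contigs that are not placed on a chromosome. On these, 10 regions of OBF4 and THX20 only were found, on 7 contigs. They were 1.15% (0.628 to 2.11%) of the regions, near the 1.19% of OBF4 peaks and 1.01% of THX20 peaks that lay on contigs. A control library was not analysed here. Contig 31 held a pair with almost the same offset: from 279699 to 280047 the OBF4 signal was 34.8 and the THX20 signal 201.7, with OBF4 148 bp below THX20, and from 361486 to 361835 the signals were 32 and 105, with OBF4 149 bp below THX20. Contigs 75 and 142 also held 2 regions each.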

How the results depend on the processing

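No paired analysis was possible because the 4 factors had 1 library each, which also leaves no replicate to omit. Of 21 values under alternatives, 14 stayed within the main interval (for counts, within 1.5 times). With summits chained at up to 100 bp, 540 regions were left and 7.59% had summits 81 bp apart; at up to 300 bp, 3.27% had them, among 1255 regions. With the stronger 50% of each list, 215 regions were left and 6.51% had summits 81 bp apart; offsets from 80 to 82 bp gave 6.46%. Among regions of 1 OBF4 and 1 THX20 peak only, added after seeing the data, the median THX20 rank was 55.8%. Shorter lists and shorter chains lose some regions and can free others from a C3H23 or CPP2 peak, so their effect on the number is not fixed beforehand. A wider tolerance counts more offsets by construction. The cause of the change in THX20 rank was not tested. The ratio of central to outer density stayed above 1, from 1.13 to 1.39, and ranking by p-value gave medians of 51.5% for OBF4 and 51.3% for THX20. Unknown depth limits every count of peaks.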
